A study of Mus musculus with 2 samples.

Results

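The 9 homing receptors examined here are cell surface receptors that steer T cells between blood, lymph nodes and tissues. They are the chemokine receptors encoded by Ccr2, Ccr4, Ccr7, Ccr8, Cxcr3, Cxcr4, Cxcr6 and Cx3cr1, and S1pr1, which encodes a receptor for the lipid sphingosine 1-phosphate (S1P). They were chosen by name, as the probe sets whose annotated symbol is exactly one of these names, and all 9 were found among the 22180 named genes with a value. Each was read by 1 probe set, and no probe set that names several genes included any of them. Naive mouse CD8+ T cells had been activated with beads carrying antibodies to CD3 and CD28, with recombinant human interleukin-2 at 100 U/mL, and expansion ran to day 13. Control cells received the solvent DMSO and treated cells bezafibrate at 30 µM for the whole culture period. Bezafibrate is a lipid-lowering fibrate that activates the PPAR nuclear receptors. The labels give both groups the same interleukin-2 dose, culture length and RNA input. They give no strain, age or number of animals or cultures, and do not say whether the groups shared animals. Each group is 1 array, so there is no replicate spread, no test was possible, and a difference describes a pair of arrays and not a pair of conditions.

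Chemokine receptors and S1P receptors are G protein-coupled receptors, and most of those described here signal through inhibitory G proteins to direct cell movement along a gradient of ligand. Naive and central memory T cells enter lymph nodes through CCR7 and leave them through S1PR1, whose gene is activated by the transcription factor KLF2. Effector T cells lose part of this program and carry receptors for inflamed tissue instead, among them CXCR3, CCR2, CXCR6 and CX3CR1. The receptors were therefore set out as 3 genes of lymph node homing and egress (Ccr7, Cxcr4 and S1pr1) and 6 genes of tissue homing (Ccr2, Ccr4, Ccr8, Cxcr3, Cxcr6 and Cx3cr1).

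All 3 lymph node homing and egress receptors read lower with bezafibrate, by 1.14-fold to 1.26-fold, whereas the tissue homing receptors went both ways. Ccr2 read 1.23-fold higher, Cxcr6 read 1.23-fold lower, and the other tissue receptors above background lay between them. Ratios below 0 made up 49.7% of genes above the floor, a signal limit given below, and 10.4% were at least 1.2-fold lower and 9.59% as far higher. Of the 9 receptors, 0 reached a 1.5-fold difference, against 1.19% of genes above the floor, and none of the 9 lay outside the range that held the central 95% of genes of like signal. Fewer cells carrying a transcript and less transcript per cell cannot be told apart in such bulk RNA.

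Values are log2 signals of the RMA method, and a log2 ratio is the bezafibrate value minus the DMSO value. The floor was the median signal of all named genes, 4.88 for DMSO and 4.85 for bezafibrate, and a gene lay above it when the brighter of its signals passed the limit of its own array. Background was read from 1394 genes of olfactory and vomeronasal receptors, taken as silent in T cells, as the 95th percentile of their signals. It was 4.71 for DMSO and 4.68 for bezafibrate. Levels of different probe sets are not comparable with each other, so each receptor is compared only with itself on the other array. Sums over marker genes, given further on, weigh the brightest probe sets most, and each sum is likewise compared only between arrays.

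S1pr1, the receptor that lets T cells follow S1P out of lymph nodes into lymph, had a log2 level of 8.26 with DMSO and 7.92 with bezafibrate (probe set 17409621). Its log2 ratio of -0.34, a 1.26-fold lower signal, was the lowest of the 9 receptors. Among the 2012 genes whose mean level lay within 0.5 log2 units of it, 3.38% had a ratio as low or lower.

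Cxcr4 encodes the receptor for CXCL12, which retains and recruits lymphocytes in bone marrow and lymphoid tissue. Its log2 level was 7.45 with DMSO and 7.15 with bezafibrate (probe set 17226593), a log2 ratio of -0.30 or a 1.23-fold lower signal. Of the 2481 genes of like level, 5.20% had a ratio as low or lower.

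Ccr7 encodes the receptor for CCL19 and CCL21, which guide naive and central memory T cells into lymph nodes. Its log2 level was 8.33 with DMSO and 8.13 with bezafibrate (probe set 17268972), and its log2 ratio of -0.19 was the smallest of the 3. Of the 1870 genes of like level, 13.4% had a ratio as low or lower. The bezafibrate array was thus the lower one for each of the 3 genes, and the ratios of S1pr1 and Cxcr4 were closer to each other than to that of Ccr7.

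Ccr2 was the only tissue homing receptor to read at least 1.2-fold higher with bezafibrate. It encodes the receptor for CCL2 and related chemokines, which draws monocytes and effector T cells into inflamed tissue. Its log2 level was 8.45 with DMSO and 8.76 with bezafibrate (probe set 17523650), a log2 ratio of 0.30. Of the 1529 genes of like level, 4.51% had a ratio as high or higher.

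Cxcr6 differed the opposite way by a like amount. It encodes the receptor for CXCL16, which holds resident T cells in liver, lung and other tissues. Its log2 level was 9.54 with DMSO and 9.23 with bezafibrate (probe set 17523642), a log2 ratio of -0.30, and 4.85% of the 804 genes of like level had a ratio as low or lower. In RefSeq's annotation of GRCm38.p6 Cxcr6 lies within the bounds of Fyco1, an autophagy adaptor gene, and Fyco1 itself had levels of 7.57 and 7.69, a ratio of 0.12.

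Cxcr3 encodes the receptor for the interferon-induced chemokines CXCL9 and CXCL10 and is a hallmark of effector CD8 T cells and type 1 helper cells. It had a log2 level of 7.78 with DMSO and 7.68 with bezafibrate (probe set 17543625), a ratio of -0.10. As many as 59.8% of genes of like level had a ratio at least as far from 0, so the difference is small beside the spread of genes between these arrays.

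The remaining tissue homing receptors had dim signals. Ccr4, which encodes a receptor of skin-homing and type 2 helper T cells, had levels of 5.47 and 5.62, a ratio of 0.15 (probe set 17531887). Cx3cr1, which encodes the fractalkine receptor of patrolling and cytotoxic effector cells, had levels of 5.72 and 5.76, a ratio of 0.05 (probe set 17532268). Ccr8, which encodes the receptor for CCL1 on skin-resident and regulatory T cells, lay within background on both arrays at 3.75 and 3.67 (probe set 17523158). Its ratio of -0.08 therefore carries no order, and Ccr8 is the 1 receptor that did not pass the floor.

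**Figure D1:**
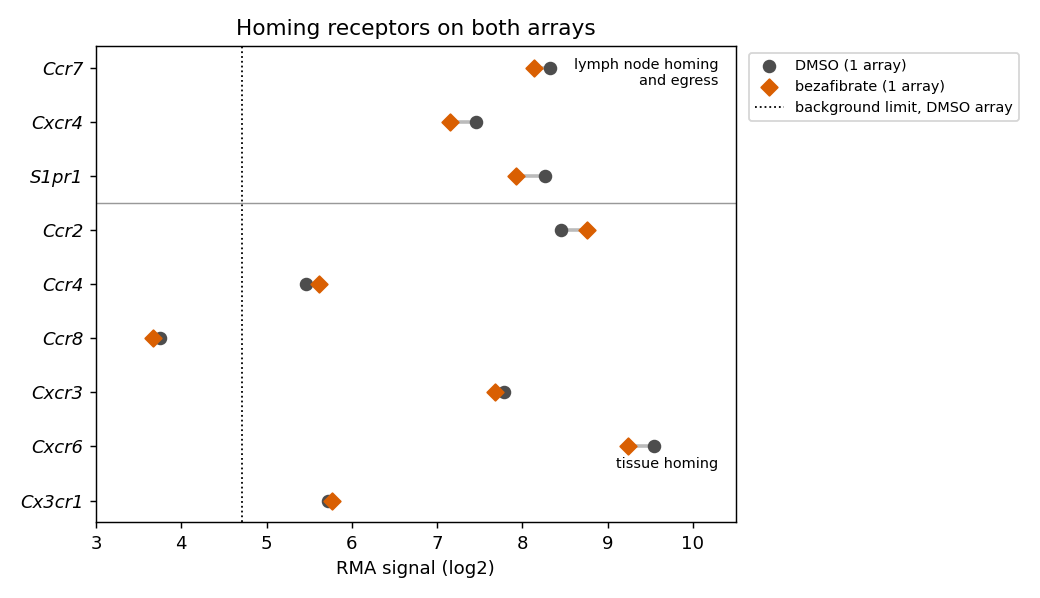
RMA signal on the log2 scale (x axis) of the 9 homing receptors (rows) on the DMSO array (grey circles) and the bezafibrate array (orange diamonds), with the DMSO background limit of 4.71 dotted. Each symbol is 1 array and there are no error bars. The diamonds lie left of the circles for Ccr7, Cxcr4, S1pr1 and Cxcr6 and to the right for Ccr2, and Ccr8 lies below the limit.

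The medians of both kinds of receptor were then set side by side. The 3 lymph node homing and egress receptors had a median log2 ratio of -0.30, with a range from -0.34 to -0.19. The 6 tissue homing receptors had a median of -0.02, with a range from -0.30 to 0.30, and the 5 of them above the floor had a median of 0.05. The median over all 11438 genes above the floor was 0. The lymph node median was lower than the tissue median by a log2 difference, coded as lymph node minus tissue, of -0.28 over all 9 receptors and of -0.35 over the 8 above the floor. The groups overlapped, because Cxcr6 lay within the range of the lymph node receptors, while the other tissue receptors above the floor (Ccr2, Ccr4, Cxcr3 and Cx3cr1) had higher ratios than all of them. The widest gap was between S1pr1 and Ccr2, whose log2 ratios differed, as S1pr1 minus Ccr2, by -0.64, a 1.56-fold gap.

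At the 1.5-fold limit 0 of the 9 receptors were counted, against 1.19% of genes above the floor in either direction. At 1.2-fold, 3 receptors were counted as lower (S1pr1, Cxcr4 and Cxcr6), against 10.4% of genes above the floor, and 1 as higher (Ccr2), against 9.59%. Of the 8 receptors above the floor, 5 had a ratio below 0, and the background share of 49.7% would give about as many. All 9 ratios lay inside the central 95% of genes of like level, which for S1pr1 ran from -0.36 to 0.37 and for Ccr2 from -0.37 to 0.34. In 441 genes with 2 probe sets above the floor, the log2 ratios of both probe sets differed by a median of 0.20, and by more than 0.3 in 32.2% of these genes. Ratios of the size seen in the receptors, each from 1 probe set, are of the same order as this disagreement within a gene.

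**Figure D2:**
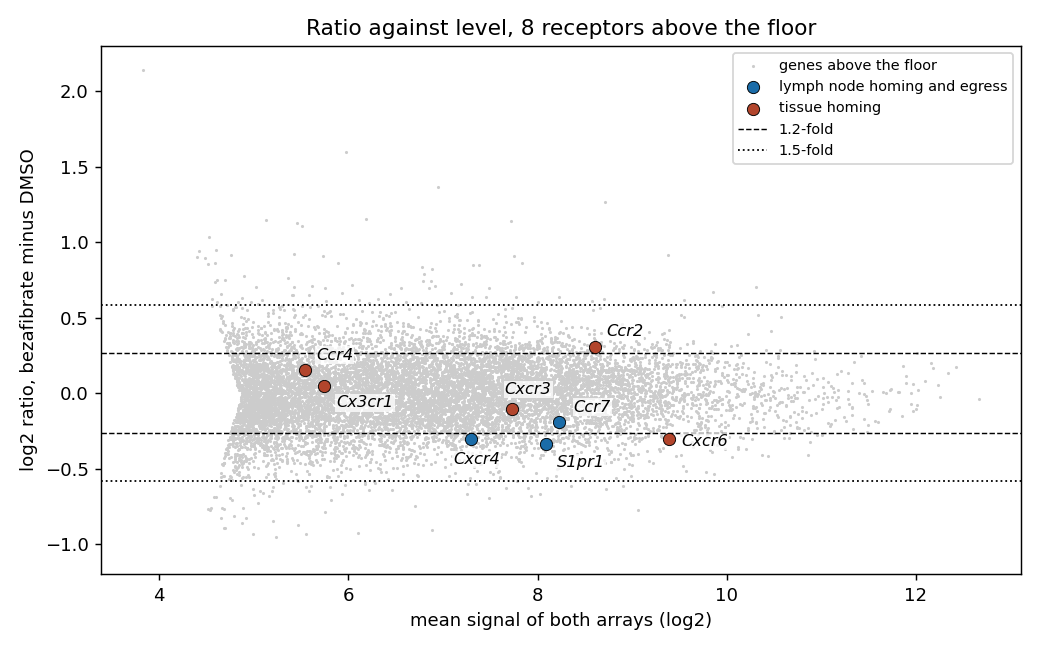
Log2 ratio of bezafibrate minus DMSO (y axis) against the mean log2 signal of both arrays (x axis) for the 11438 genes above the floor (grey points) and the 8 homing receptors above it (blue for lymph node homing and egress, red for tissue homing). Dashed lines mark 1.2-fold and dotted lines 1.5-fold. Ccr2 lies just above the upper dashed line and S1pr1, Cxcr4 and Cxcr6 just below the lower one, all within the grey cloud.

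Several of the receptor genes are short, and short genes read lower with bezafibrate in general. The shortest 25% of genes above the floor by RefSeq gene length had a median log2 ratio of -0.09, and the longest 25% had 0.08. S1pr1 spans 4623 bp, Cxcr4 4101 bp, Cxcr6 5278 bp and Cxcr3 2613 bp, whereas Ccr7 spans 10879 bp, Ccr4 15161 bp and Cx3cr1 19614 bp. After subtraction of the median ratio of genes similar in level and length, the log2 ratio became -0.21 for S1pr1, -0.17 for Cxcr4 and -0.13 for Ccr7. It became -0.18 for Cxcr6, and Cxcr3 changed sign to 0.07, whereas Ccr2 moved away from 0 to 0.39. On that scale 0 receptors were at least 1.2-fold lower, against 8.19% of genes above the floor, and 1, Ccr2, was at least 1.2-fold higher, against 8.83%. The lymph node receptors again had the lower median, -0.17 against 0.07 for the tissue homing receptors.

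**Figure D3:**
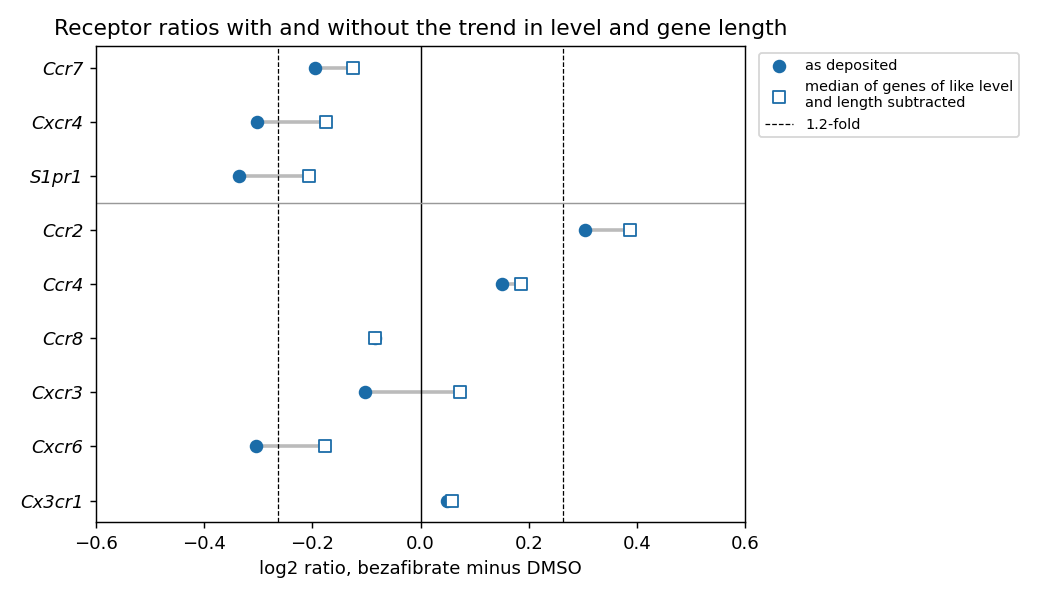
Log2 ratio of bezafibrate minus DMSO (x axis) of the 9 homing receptors (rows) as deposited (filled circles) and after subtraction of the median ratio of genes of like level and gene length (open squares), with 1.2-fold dashed. S1pr1 moves from -0.34 to -0.21, Cxcr3 crosses 0, and Ccr2 moves from 0.30 to 0.39.

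Of the 9 receptor genes, 5 lie on mouse chromosome 9, and Cxcr6 and Ccr2 belong to the same cluster of receptor genes there. Of their neighbours in it, Ccr9, Xcr1, Ccr1, Ccr1l1 and Ccr3 lay within background on both arrays, with levels from 1.79 to 4.51. Cxcr6 and Ccr2 were thus the receptor genes with signal among these 7, and they differed in opposite directions. The 250 bases upstream of the annotated start are shown for this pair because of that contrast, and for Cxcr4 as a lymph node receptor that shared its direction with Cxcr6. Upstream windows were available here for 7 of the 9 receptors, all but Ccr7 and S1pr1. Sequences are from RefSeq (GRCm38.p6). Each is written 5′ to 3′ on the gene's strand. Capitals mark matches on either strand to 7 short motifs, which are spelled out with their counts after the sequences.
Ccr2, chr9:124101933-124102182, plus strand: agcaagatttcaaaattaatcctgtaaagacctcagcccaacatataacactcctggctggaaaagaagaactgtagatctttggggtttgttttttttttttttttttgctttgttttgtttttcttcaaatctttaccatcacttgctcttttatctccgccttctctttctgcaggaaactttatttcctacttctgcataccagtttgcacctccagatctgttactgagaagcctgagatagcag
Cxcr6, chr9:123806227-123806476, plus strand: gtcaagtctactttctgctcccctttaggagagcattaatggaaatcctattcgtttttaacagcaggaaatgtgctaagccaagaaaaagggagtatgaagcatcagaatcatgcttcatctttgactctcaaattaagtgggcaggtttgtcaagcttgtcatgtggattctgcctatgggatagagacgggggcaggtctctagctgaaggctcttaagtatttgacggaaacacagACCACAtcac
Cxcr4, chr1:128592300-128592549, minus strand: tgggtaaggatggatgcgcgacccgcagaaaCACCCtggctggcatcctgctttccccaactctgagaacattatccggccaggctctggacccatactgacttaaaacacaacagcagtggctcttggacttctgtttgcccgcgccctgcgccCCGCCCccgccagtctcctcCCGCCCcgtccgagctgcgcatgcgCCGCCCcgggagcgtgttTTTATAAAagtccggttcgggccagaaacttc

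The Ccr2 window held none of the 7 motifs and was 37.2% G or C. The Cxcr6 window held a single match, to the RUNX core TGTGGT, whose last base lies at position -5 from the start; this motif was present in 14% of all 32851 windows of the same length and in 3 of the 7 receptors (Cx3cr1, Cxcr6 and Cxcr3). The Cxcr4 window was 61.2% G or C with 19 CpG dinucleotides. It held 3 copies of GGGCGG, the GC box bound by SP factors, which was found in 32.7% of windows. It also held the TATA box TATAAA, found in 12.4% of windows, whose matches on both strands overlap between positions -32 and -25. A further match in Cxcr4 was to CACCC, the core of KLF sites, found in 52% of windows and in 4 of the 7 receptors (Cxcr4, Ccr4, Cx3cr1 and Ccr8).

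Among the receptors whose windows are not printed, Ccr4, Ccr8 and Cxcr3 held the ETS core CAGGAAG, found in 10.8% of windows. Ccr4 alone of the 7 receptors held the AP-1 site TGAGTCA, found in 4.46% of windows. The letters AGGTCA, to which nuclear receptors such as the PPARs bind as part of a longer site, were in 0 of the 7 windows and in 14% of all windows, which says only that these letters are not in these 250 bases.

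Among the 12 other genes of S1P receptors and S1P handling, 8 lay above the floor. Against 49.7% of genes above the floor with ratios below 0, 6 of these 8 were lower and 2 higher. Their median log2 ratio was -0.21, and -0.15 with the trend in level and length subtracted. S1pr4, which encodes an S1P receptor of lymphocytes, had levels of 7.34 and 6.79, a ratio of -0.55 or a 1.46-fold lower signal, wider than that of S1pr1. Spns2, which encodes an S1P exporter, had 5.58 and 5.22, a ratio of -0.37. These 2 were the members at least 1.2-fold lower, and 0 were as far higher, against the 10.4% and 9.59% given above. S1pr2, which encodes a receptor that restrains migration, had a ratio of -0.21, and S1pr5, of natural killer and effector cells, 0.06, while S1pr3 lay within background. Sgpl1, the S1P lyase that degrades S1P, had 0.19.

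Of 19 other chemokine and chemoattractant receptors measured, 13 lay within background on both arrays and 6 lay above the floor, with 3 higher and 3 lower. Against the background shares of 10.4% and 9.59%, 2 were at least 1.2-fold lower and 0 as far higher. The 2 were the scavenging receptors Ackr2, with levels of 5.78 and 5.36 (ratio -0.41), and Ackr3, with 4.90 and 4.13 (ratio -0.77). Ackr3 was the 1 gene of these 6 past 1.5-fold, against 1.19% of genes above the floor. The bezafibrate level of Ackr3, which takes up CXCL12, did not pass background, and its DMSO level was 1.16-fold above the bezafibrate background limit. Gpr183, which encodes the oxysterol receptor EBI2, had a ratio of -0.06 and Ptger4, a prostaglandin E2 receptor, 0.09. Of the 13 measured ligand genes of the receptors, 2 lay above the floor, Ccl2 at 5.04 and 5.11 and Cxcl16 at 5.13 and 5.07. The measured ligand transcripts thus gave no more than a dim signal on either array.

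Among regulators of receptor genes and egress, Klf2 was the 1 gene of 16 above the floor past 1.2-fold, against shares of 10.4% lower and 9.59% higher over all genes above the floor, so the list holds no more such genes than the background. It encodes a transcription factor that activates S1pr1. Its levels were 7.62 and 7.33, a ratio of -0.30 that was close to those of S1pr1 and Cxcr4 and became -0.12 with the trend in level and length subtracted. Foxo1, an activator of Klf2 and Ccr7, was read by a bright probe set at 8.74 and 8.76 and by a dimmer one with a ratio of -0.30. Cd69, whose product pulls S1PR1 from the cell surface, had 9.53 and 9.48. Tbx21 and Eomes, the T-box factors of effector and memory cells, had ratios of -0.03 and 0.03. Gata3 had -0.25 on its brighter probe set and 0.11 on another, and with that trend subtracted, at -0.28, it replaced Klf2 as the gene past 1.2-fold. Hif1a and Satb1 had 0.19 and 0.15. The 16 genes had a median of 0.00, with 8 higher and 7 lower, so the lower Klf2 signal stood beside regulators that differed in both directions. Tcf7 and Zeb2 had no probe set naming that gene alone and are not analysed here.

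Receptor signalling and desensitisation genes had a median of -0.04 over the 28 above the floor, with 18 lower and 10 higher. The share with ratios below 0 over all genes above the floor was 49.7%. Against the shares of 10.4% and 9.59% of genes above the floor, 4 of the 28 were at least 1.2-fold lower and 2 as far higher. The 4 lower ones were Rgs10 (8.21 and 7.58), Rgs2 (5.38 and 4.92) and Rgs19 (8.77 and 8.45), regulators that shut off G protein signals, and Arrb2 (9.51 and 9.21), which encodes an arrestin that uncouples and internalises receptors. Rgs10, at a ratio of -0.63, was the 1 gene of the 28 past 1.5-fold, against 1.19% of genes above the floor. Rgs1, the regulator most often linked to T cell retention, had 6.26 and 6.18. The 2 higher ones were Gna13, a G protein subunit that restrains migration, at a ratio of 0.34, and Elmo1, a partner of the migration factor DOCK2, at 0.30. With the trend in level and length subtracted, Rgs10 and Rgs2 were the 2 genes of this list at least 1.2-fold lower and 0 were as far higher, against 8.19% and 8.83% of genes above the floor. Gnai2, the main inhibitory G protein subunit of these receptors in lymphocytes, had a ratio of -0.23.

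Adhesion molecules that act with the receptors divided 9 higher and 8 lower above the floor, with a median of 0.02, which became -0.08 with the trend in level and length subtracted. Cd44, which encodes a hyaluronan receptor of antigen-experienced cells, had levels of 6.70 and 7.13, a ratio of 0.43. Itgae and Itgb7, which encode both chains of the integrin that binds E-cadherin on epithelium, had ratios of -0.41 and -0.29, and Icam2, an integrin ligand, had -0.43. On the brightest probe set of each gene, these were the adhesion genes past 1.2-fold, 1 of 17 higher and 3 lower. The shares of genes above the floor were 9.59% and 10.4%. With that trend subtracted, 2 adhesion genes were as far higher and 4 as far lower, against 8.83% and 8.19%. Selplg had levels of 11.60 and 11.39 on its brightest probe set, a ratio of -0.21. Its other probe set, at 10.04 and 9.50, had a ratio of -0.54, past 1.2-fold.

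**Figure D4:**
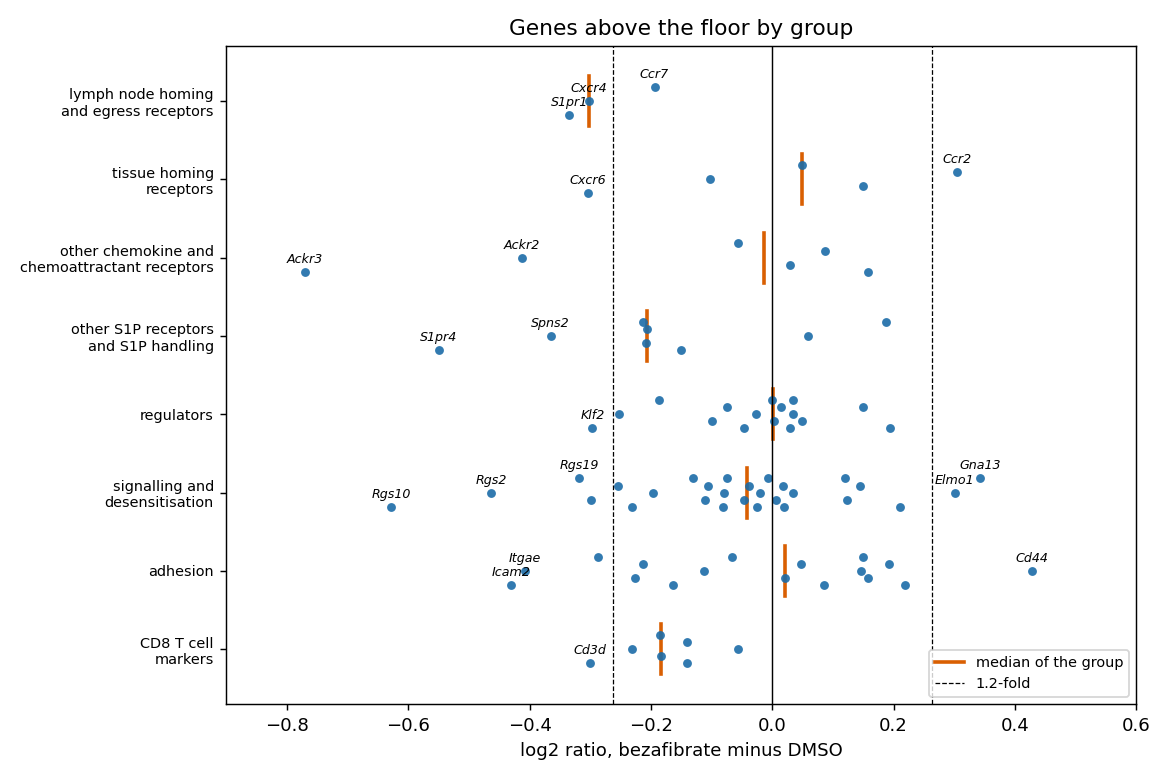
Log2 ratio of bezafibrate minus DMSO (x axis) of each gene above the floor (points) in 8 gene groups (rows; vertical scatter has no meaning), with the group median in orange and 1.2-fold dashed. The medians are -0.30 for lymph node homing and egress receptors, 0.05 for tissue homing receptors, -0.21 for the other S1P genes and -0.18 for CD8 T cell markers.

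The labelled cell type was checked on its markers. Cd8a (10.82 and 10.68), Cd8b1 (10.43 and 10.20) and Cd3e (11.10 and 11.05) were bright on both arrays, and Cd4 lay within background. Of the listed CD8 T cell markers, Lck and Trac were not measured. All 7 measured had ratios below 0, against 49.7% of genes above the floor. Only Cd3d was at least 1.2-fold lower, against 10.4% of genes above the floor. The ratios of the 7 ran from -0.30 for Cd3d to -0.06 for Cd3e, with a median of -0.18. With the trend in level and length subtracted the median was -0.12, with 6 lower and Cd3e at 0.01. Thus the deposited ratio of Ccr7 was near the median of these markers. Their part in the lower receptor signals was not tested. Monocytes and macrophages also use Ccr2 and Cx3cr1. Of 10 of their markers, 6 lay within background on both arrays and 2 above the floor, Cd68 (ratio 0.01) and Ly6c2 (-0.03), which activated CD8 T cells also express. Their summed linear signal was 2465 with DMSO and 2437 with bezafibrate, most of it from Ly6c2, and 232 and 242 without that gene. Over all 10 markers, background ones included, 7 had ratios above 0, and their part in the Ccr2 signal was not tested. Summed B cell markers were 636 with DMSO and 513 with bezafibrate, with Cd79b at -0.55 and Ighm at -0.33, and 106 and 90.1 without Ighm, the brightest. Summed dendritic cell markers were 635 and 490, and 123 and 116 without Cd209a, whose ratio was -0.45. A dimmer probe set of Cd209a lay within background on both arrays at 3.98 and 3.86, a ratio of -0.12. Summed natural killer cell markers were 178 and 135, and 82.5 and 84.7 without Fcer1g, whose ratio was -0.93. The lower sums thus came mostly from 1 bright gene in each list. Over all measured members, background ones included, ratios were above 0 for 1 B cell marker and below 0 for 5. For dendritic cell markers 2 were above 0 and 4 below, and for natural killer cell markers 2 were above and 3 below. Most of each list lay within background, 4 of 6, 5 of 7 and 4 of 6 genes, and their part in the receptor signals was not tested. Ccr4 and Ccr8 are also used by CD4 and regulatory T cells, whose markers summed to 147 and 164, with 5 of 8 within background and Zbtb7b at 0.27 and Foxp3 at 0.07.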

How the data were processed

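Total RNA of DMSO-treated and bezafibrate-treated cells, 1 array each, was amplified with a whole-transcript kit from 100 ng and hybridised to Affymetrix arrays, per the labels' protocols. The authors deposited a log2 signal for each probe set. Per the submitters' processing notes it came from RMA and Affymetrix Expression Console. Versions and genome build are not stated there. RMA equalises the arrays, so a change shared by most genes is removed, and it understates differences of dim genes. The log base was inferred from the range of values, 0.75 to 12.68 with DMSO.

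Of 33793 probe sets with values, 23521 named 1 gene, 1814 several and 8458 none in the platform annotation. Only those with 1 symbol were used, with the brightest standing for a gene. With 1 array per group no test was made, and the number of arrays limits the precision. Genes were counted at 1.5-fold; 1.2-fold and 2-fold were tried too. Genes of like level had a mean within 0.5 log2 units. Named were all receptors, the listed genes above the floor past 1.2-fold, the extremes of lists with fewer than 2 such genes, and a few fixed regulators. Likeness of pattern was not computed, since 2 arrays give no measure of it. Receptors, lists and limits were chosen with earlier results of these data known. Alternatives were other probe sets, quantile normalization, a loess curve on level (span 0.3), centring, other floors, means, and other groupings. Subtraction of the median of genes in the same of 10 by 10 classes of level and length was added after seeing the data. Gene lengths covered 99.8% of genes (RefSeq, GRCm38.p6). Ratios and limits were tested on simulated data. Calculations used Python 3.11.15, numpy 2.4.6, pandas 2.3.3 and statsmodels 0.14.6, with matplotlib 3.10.9 for plots.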

Additional observations from a re-analysis of the deposited data

How the results depend on the processing

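The median of the lymph node homing and egress receptors stayed below 0 under 11 alternatives, from -0.32 to -0.17, and the difference of medians, lymph node minus tissue, ran from -0.35 to -0.23. The median of the tissue homing receptors ran from -0.08 to 0.07 and changed sign under 4 of 11 alternatives, so it has no settled direction. Among single receptors the sign changed in 1 case, Cxcr3, from -0.10 to 0.07 after subtraction of the trend in level and length. At a fold limit of 1.2 in place of 1.5, the count of receptors that differed went from 0 to 4, and it was 0 under the other 11 alternatives. Among these, a 2-fold limit and a higher floor could not have raised it. The number lower with bezafibrate was 5 or 6. No paired analysis was possible because each group holds 1 array. Each receptor is read by 1 probe set, so choices among probe sets could not alter a ratio. Centring could not either, since the median it subtracts was 0. Ccr8, within background, has no measurable difference here.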
